A study of Mus musculus with 12 samples.

Results

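The genes described here are 10 classical antiviral genes induced by type I interferon: Isg15, Ifit1, Ifit2, Ifit3, Ifi44, Mx1, Oasl2, Rsad2, Usp18 and Irf7. They were taken by symbol from the gene table that accompanies each count matrix, and all 10 were found among its 31053 genes. The study compared single cells from mouse tracheal allografts (transplanted windpipes, a model of the scarring airway disease obliterans bronchiolitis) with cells from native tracheas and from spleen, with 4 samples of each source and 12 in all. The 4 samples of a source shared 1 matrix, and no barcode carried a sample name, so each source was 1 library in every comparison. Differences between libraries therefore had no replicate check and no test, and every interval below covers counting error only. Strain, donor and host pairing, time after transplantation, age and treatment are not given in the sources used here. By their labels, trachea cells are mesenchymal progenitors and spleen cells are splenocytes. Markers of fibroblasts placed only 32 of 3864 allograft cells and 939 of 4115 native cells in a fibroblast class, while markers of mononuclear phagocytes placed 2324 and 1855 cells there, so the trachea libraries are called by their source below.

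Type I interferons are cytokines that nearly every cell can make after sensing foreign or misplaced nucleic acid. They bind the receptor formed by Ifnar1 and Ifnar2 and, through Jak1 and Tyk2, activate a complex containing Irf9 that binds the interferon-stimulated response element in front of antiviral genes. Interferon gamma acts through a separate receptor and shares part of these target genes.

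The 10 genes act at different steps of the antiviral state. Isg15 (ENSMUSG00000035692, chr4:156199424-156200818, minus strand) encodes a ubiquitin-like protein that is attached to other proteins, and Usp18 (ENSMUSG00000030107, chr6:121245906-121270917, plus strand) encodes the protease that removes it and that also dampens signalling at the interferon receptor. Ifit1 (ENSMUSG00000034459, chr19:34640871-34650009), Ifit2 (ENSMUSG00000045932, chr19:34550694-34576419) and Ifit3 (ENSMUSG00000074896, chr19:34583531-34588731) lie beside each other on the plus strand and encode proteins that hold back translation of foreign RNA. Rsad2 (ENSMUSG00000020641, chr12:26442746-26456452, minus strand) encodes viperin, an enzyme that makes a chain-terminating nucleotide. Mx1 (ENSMUSG00000000386, chr16:97447035-97462907, minus strand) encodes a dynamin-like GTPase that blocks influenza virus, and many laboratory mouse strains carry a disrupted copy. Oasl2 (ENSMUSG00000029561, chr5:114896936-114912234, plus strand) encodes a relative of the oligoadenylate synthetases, Ifi44 (ENSMUSG00000028037, chr3:151730922-151749960, minus strand) an interferon-induced protein of less settled function, and Irf7 (ENSMUSG00000025498, chr7:141262706-141266481, minus strand) the transcription factor that amplifies interferon alpha and beta production. Coordinates are those of GENCODE M21 on GRCm38. Ifit1 and Ifit3 have related neighbours, Ifit1bl1 and Ifit3b, whose likeness in sequence was not measured here. How reads that match a gene and its neighbour were treated was not tested, so the counts of Ifit1 and Ifit3 carry that uncertainty.

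The sequence that these genes are known to share is the response element, a pair of GAAA blocks with a short spacer, so the stretch before the start site is shown for 6 of them. The element was searched as GAAA, any 2 bases and GAAA again, on both strands, overlapping matches included, in the 300 bases around each start (250 before to 50 after) of the RefSeq promoter table on GRCm38.p6. Of 32851 promoters, 1131 (3.44%) held a match. The table held 8 of the 10 genes, and 4 of those 8 had a match: Isg15, Ifit1, Ifit3 and Rsad2. At least 2 matches occurred in 74 promoters (0.225%), among them those of Isg15, Ifit1 and Ifit3. Each line below gives positions -160 to -41 from the start site, 5′ to 3′ on the gene's strand, with matches in capitals. The windows are chr4:156200859-156200978 (minus) for Isg15, chr19:34640729-34640848 (plus) for Ifit1, chr19:34583369-34583488 (plus) for Ifit3, chr12:26456493-26456612 (minus) for Rsad2, chr3:151749951-151750070 (minus) for Ifi44 and chr7:141266465-141266584 (minus) for Irf7.
Isg15: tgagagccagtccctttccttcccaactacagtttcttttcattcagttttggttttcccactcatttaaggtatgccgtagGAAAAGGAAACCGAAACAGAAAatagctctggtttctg
Ifit1: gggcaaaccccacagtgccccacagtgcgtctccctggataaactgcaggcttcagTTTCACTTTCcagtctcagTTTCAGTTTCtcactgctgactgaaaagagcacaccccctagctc
Ifit3: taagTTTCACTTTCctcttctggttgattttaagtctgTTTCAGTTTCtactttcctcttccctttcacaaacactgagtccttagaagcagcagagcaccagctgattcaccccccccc
Rsad2: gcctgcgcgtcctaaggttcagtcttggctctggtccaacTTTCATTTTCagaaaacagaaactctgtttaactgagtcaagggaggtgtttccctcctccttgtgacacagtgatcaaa
Ifi44: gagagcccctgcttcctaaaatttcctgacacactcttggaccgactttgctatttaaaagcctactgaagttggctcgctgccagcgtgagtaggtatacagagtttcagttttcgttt
Irf7: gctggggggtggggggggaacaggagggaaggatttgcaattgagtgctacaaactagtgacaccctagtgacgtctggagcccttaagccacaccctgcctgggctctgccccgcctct
The Isg15 line holds 3 overlapping matches, the Ifit1 and Ifit3 lines 2 each, and the Rsad2 line 1. Ifi44 and Irf7, shown because their levels differed most between the trachea libraries (below), had no match in the window. With the last base dropped (GAAANNGAA, held by 8.56% of promoters), Ifi44 gained a match across its start site and the count became 5 of 8. By GENCODE M21 exons, 10 bases of the Ifi44 window and 17 of the Irf7 window overlap the gene's own exon, and 15 of the Ifit1 window an exon of Ifit1bl2. A match here describes letters only, and binding was not measured.

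After filtering, 3864 allograft, 4115 native and 4570 spleen cells were used, with a median of 4965, 6526 and 4428.5 UMIs (counted RNA molecules) per cell and 25498003, 30335492 and 27880363 UMIs in all. Levels are given as CPM, the gene's UMIs scaled by a fixed factor to the total UMIs of the cells named, and because the chemistry reads RNA 3′ ends, they are compared between cells and not between genes. The libraries shared 4 to 7 barcodes in pairs, of which 3 to 5 passed the filters. The doublet caller marked 31, 43 and 9 barcodes (0.672%, 0.930% and 0.185%), below the 3.69% to 3.88% expected from loading. Doublets thus likely remain among the cells. The gap to the expected rate was widest in the spleen, and the true number of doublets was not measured.

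Over all cells, the 10 genes together made up 484 CPM in the allograft, 385 CPM in the native trachea and 150.3 CPM in the spleen. The summed level was 1.26-fold higher in the allograft than in the native trachea (95% counting interval 1.23 to 1.29), and the genes did not move as a block. A gene was called when the 2 libraries differed 2-fold or more, the interval did not include 1 and the sums held 30 UMIs or more. By that rule 2 of the 10 genes were higher in the allograft, where 6.43% of all measured genes were, and 0 were lower, where 16.9% of all genes were. Their median log2 ratio was 0.47, beside 0.04 for all measured genes.

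Irf7 stood at 68.5 CPM in the allograft, 26.6 CPM in the native trachea and 27.3 CPM in the spleen. The allograft was the high library for this transcription factor, at 2.57-fold the native level (2.37 to 2.80), and the other libraries lay close together. Ifi44 stood at 7.41, 2.31 and 2.91 CPM, a 3.20-fold difference between the tracheas (2.43 to 4.29). Ifit2 was at 21.4, 11.0 and 8.39 CPM. Its ratio of 1.94 (1.69 to 2.24) fell just short of 2-fold and passed it when each cell weighed the same (2.22) or was thinned to 1500 UMIs (3.12). Oasl2 was at 39.4, 25.7 and 17.0 CPM, and Rsad2 at 169.1, 116.5 and 14.7 CPM. For viperin the step between trachea and spleen was much the larger. The tracheas differed by 1.45-fold (1.39 to 1.52), and the allograft exceeded the spleen 11.5-fold (10.4 to 12.8).

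Of the other members, Isg15 and Ifit1 were higher in the native trachea. Isg15 stood at 108.7, 120.4 and 36.9 CPM, an allograft to native ratio of 0.903 (0.859 to 0.948) that turned to 1.02 when each cell weighed the same and to 1.08 without cells holding interferon beta UMIs. Ifit1 stood at 34.5, 51.1 and 12.1 CPM, a ratio of 0.675 (0.621 to 0.734). Ifit1 was thus the member lowest in the allograft relative to the native trachea. Ifit3 (17.7, 16.7 and 13.4 CPM), Mx1 (10.6, 8.01 and 7.14 CPM) and Usp18 (6.90, 6.23 and 10.4 CPM) differed by less than 1.4-fold between the tracheas, and of these Mx1 was higher in the allograft (1.32, 1.11 to 1.58). Usp18 was the member with its highest level in the spleen. Against the spleen, 7 of the 10 were called higher in the allograft (22.8% of all genes) and 3 in the native trachea, Isg15, Ifit1 and Rsad2 (28.1% of all genes). None was called lower in either comparison, beside 25.6% and 26.9% of all genes, and both comparisons share the spleen library.

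**Figure D1:**
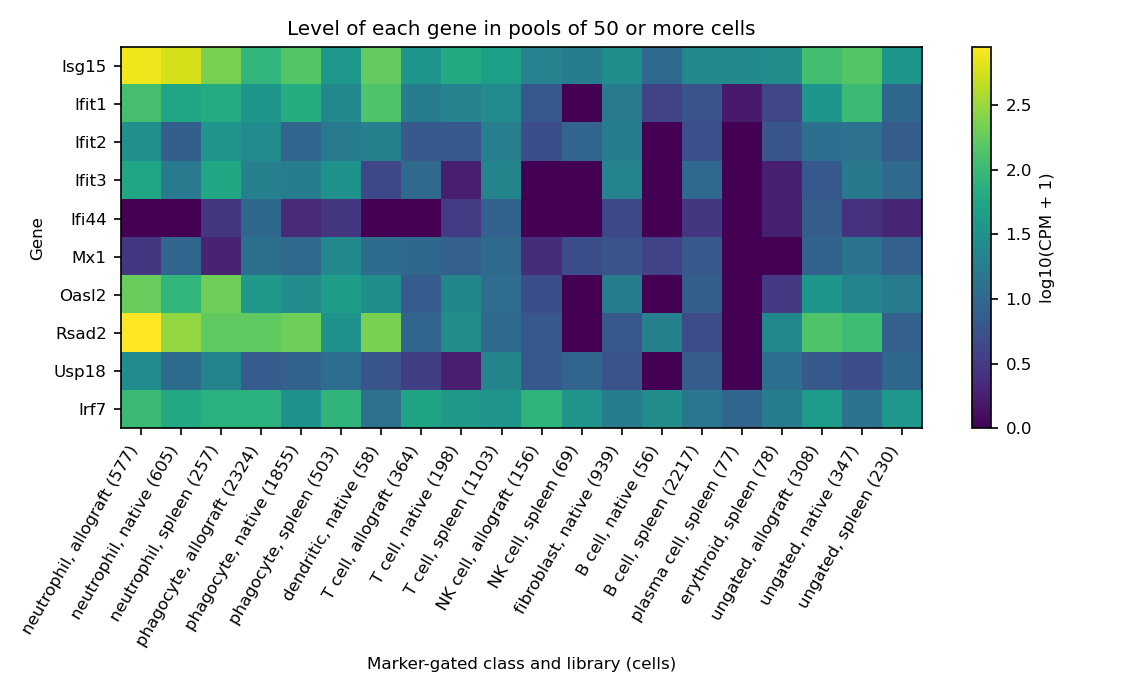
Level of each of the 10 genes (vertical axis) in each cell class and library with 50 cells or more, ungated cells included (horizontal axis, number of cells in brackets), as log10(CPM + 1) with brighter colours for higher levels. Neutrophils, at the left, hold the brightest fields for Isg15 (755, 567 and 222 CPM in the allograft, native and spleen libraries) and Rsad2 (885, 292 and 166 CPM), while Ifi44 is at 0 UMIs in neutrophils of both tracheas.

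Cells were placed in 13 classes by 10 marker genes each, and classes with 50 cells or more were described. Neutrophils had the highest summed CPM in every library. Their median depths were 1702, 1977 and 2452 UMIs in the allograft, native and spleen libraries, beside 6873, 6498 and 3526 in phagocytes. CPM is relative to these totals, so the order need not hold for UMIs per cell. In the allograft neutrophils stood at 2149 CPM, followed by phagocytes at 471 CPM, and by T cells (143 CPM) and NK cells (128 CPM), whose intervals overlapped. In the native trachea the order was neutrophils (1096 CPM), dendritic cells (610.0 CPM), phagocytes (504 CPM), T cells (186 CPM), fibroblasts (132 CPM) and B cells (61.2 CPM). The counting intervals of neighbours did not overlap, but 2 of these places rested on few cells. Of the 365 dendritic UMIs, 184 lay in 1 of 58 cells. Without the 10 cells with most UMIs, native T cells stood at 73.7 CPM, below fibroblasts at 103.3 CPM. In the spleen it was neutrophils (841 CPM), phagocytes (302 CPM) and T cells (199.8 CPM), followed by erythroid cells (89.8 CPM), B cells (79.6 CPM), NK cells (70.0 CPM) and plasma cells (33.6 CPM), of which each overlapped the next. The spleen neutrophil to phagocyte ratio of 2.78 became 5.80 when each cell weighed the same.

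Neutrophils gave 18.4%, 14.0% and 21.1% of the summed UMIs of the 10 genes in the allograft, native and spleen libraries, from 4.15%, 4.91% and 3.77% of all UMIs. Phagocytes gave 69.9%, 56.1% and 14.9%, and in the spleen B cells (25.2%) and T cells (24.1%) gave more than phagocytes did. By number, neutrophils were 14.9%, 14.7% and 5.62% of cells, and phagocytes 60.1%, 45.1% and 11.0%. Among classes with 50 cells or more, the genes did not share a single order. Ifi44 was highest in phagocytes in the allograft, with 0 UMIs in neutrophils, T cells and NK cells, and highest in T cells in the spleen (7.51 CPM). Mx1 was highest in phagocytes among these classes in the spleen (23.7 CPM). The 19 spleen dendritic cells stood at 58.4 CPM (26.7 to 110.8), from 9 UMIs. Among native classes of 50 cells or more, Ifit3 and Ifi44 were highest in fibroblasts (19.9 and 3.32 CPM), with intervals that overlapped the next class. Smaller native classes stood higher, on few UMIs. The 27 epithelial cells had Ifit3 at 37.1 CPM (17 UMIs) and Ifi44 at 19.6 CPM (9 UMIs). In the 18 endothelial cells Ifi44 stood at 50.8 CPM (4 UMIs). Ifit2 stood at 16.6 CPM in native fibroblasts and at 18.4 CPM in native dendritic cells. Irf7 in the spleen was as high in phagocytes (83.8 CPM) as in neutrophils (76.2 CPM), whose intervals overlapped. It was higher in the 17 spleen cells of the plasmacytoid class, at 206 CPM (133.6 to 304.7). Rsad2 was low in native fibroblasts, at 5.53 CPM. Ifit1 was no higher in native neutrophils (53.1 CPM) than in native phagocytes (66.6 CPM). Usp18 in spleen T cells (20.8 CPM) lay inside the interval of spleen neutrophils (12.4 to 30.6 CPM).

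The clearest difference between the tracheas lay in neutrophils. Their summed level was 1.96-fold higher in the allograft (1.84 to 2.09), and 6 of the 8 members with enough UMIs were called higher, beside 3.9% of all genes measured in neutrophils, while 0 were called lower, beside 2.76%. The median log2 ratio of the 8 was 1.23, beside 0.09 for all genes. Scaling by the median of ratios moved neutrophil ratios down by 0.12 on the log2 scale and left 5 calls. Rsad2 stood at 885 CPM in allograft neutrophils, 292 CPM in native ones and 166 CPM in spleen ones. The ratio between the tracheas was 3.03 (2.70 to 3.41), and the allograft was above both other libraries. Ifit3 stood at 54.9, 14.8 and 58.1 CPM, a ratio of 3.66 (2.24 to 6.37). Here the native trachea was the low library. The spleen level rested on few cells, since 2 of 257 spleen neutrophils held at least 50% of their 61 Ifit3 UMIs, and without the 10 cells with most UMIs the levels were 18.4, 1.38 and 6.84 CPM. Oasl2 was level between allograft and spleen and lower in the native trachea, at 179.8, 86.0 and 198 CPM, with a ratio between the tracheas of 2.09 (1.66 to 2.64). Ifit1 stood at 117, 53.1 and 64.8 CPM, a ratio of 2.21 (1.65 to 2.97). Against spleen neutrophils, 2 genes (Isg15 and Rsad2) were called higher in the allograft, beside 20.2% of all genes, and 0 lower, beside 18.8%. In native neutrophils Isg15 was called higher than in the spleen, 1 gene beside 17.2%, and Ifit2, Ifit3 and Oasl2 lower, 3 genes beside 19.1%. The lower calls of Ifit2 and Ifit3 rested on a few spleen cells, with 25 of 35 spleen Ifit2 UMIs in 1 cell. Without the 10 cells with most UMIs, Ifit2 was at 0 UMIs in both and the Ifit3 interval (0.020 to 1.06) included 1, while Oasl2 stayed lower (0.431) and Rsad2 passed 2-fold higher (2.27, from 1.76).

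Ifit2 and Usp18 were called on few UMIs. Ifit2 had 31 UMIs in allograft and 10 in native neutrophils (29.3 and 6.72 CPM, ratio 4.22, 2.09 to 9.98). Usp18 had 27 and 15 UMIs (25.5 and 10.1 CPM, ratio 2.50, 1.30 to 5.13), and its ratio was 0.874 under a stricter cell filter that left 6 UMIs. Isg15, at 755, 567 and 222 CPM, differed by 1.33-fold (1.21 to 1.47) and Irf7, at 100.3, 58.5 and 76.2 CPM, by 1.71-fold (1.28 to 2.30), and neither was called. Mx1 (1.89 and 8.06 CPM) and Ifi44 (0 UMIs in both, which allows up to 2.84 and 2.02 CPM) had too few UMIs to measure. The count of 6 fell to 3 of 5 measured genes under the stricter filter, to 3 of 5 without the 10 cells with most UMIs and to 2 of 6 with cells thinned to 1500 UMIs. The markers of the gate itself differed between these neutrophil pools. The 10 neutrophil markers summed to 65164 CPM in the allograft, 120328 CPM in the native trachea and 216354 CPM in the spleen, and the 10 phagocyte markers to 799 CPM in the allograft and 538 CPM in the native trachea. Their part in the member levels was not tested.

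**Figure D2:**
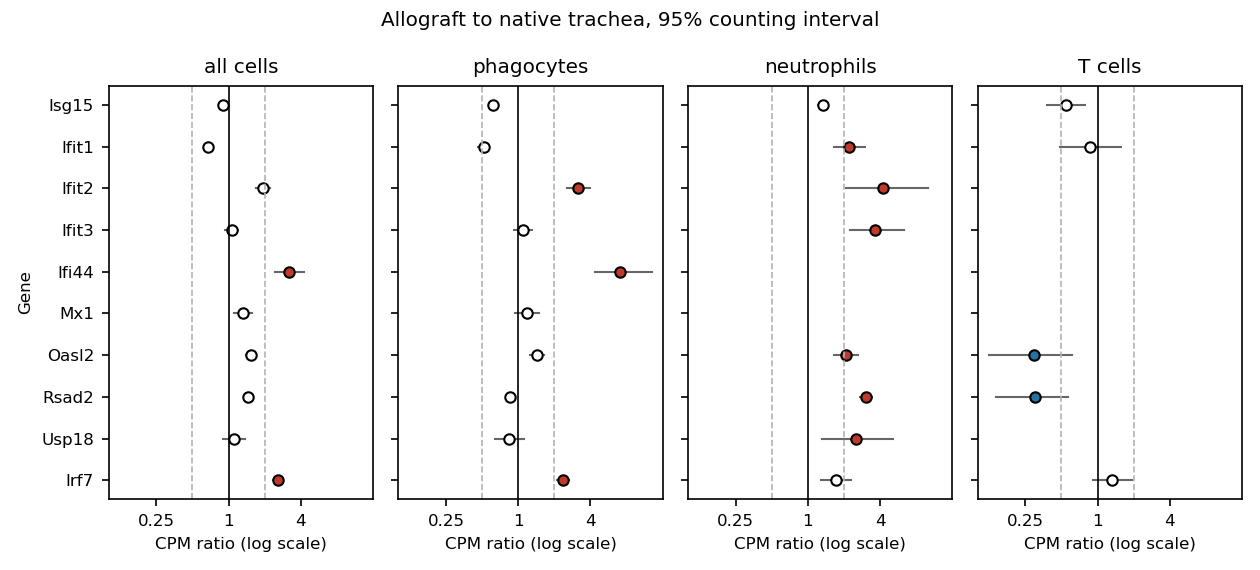
Ratio of allograft to native CPM (horizontal axis, log scale) for each of the 10 genes (vertical axis) in all cells, phagocytes, neutrophils and T cells, with 95% counting intervals and dashed lines at 0.5 and 2. Red points were called higher, blue points lower and white points neither, and genes with fewer than 30 UMIs are not drawn. The neutrophil points lie right of 1, from 1.33 for Isg15 to 4.22 for Ifit2, while the phagocyte points run from 0.518 for Ifit1 to 7.06 for Ifi44.

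In phagocytes, the summed level was nearly the same in both tracheas, 471 and 504 CPM (ratio 0.933, 0.904 to 0.964), and 302 CPM in the spleen. Behind that sum the members lay far apart. Ifi44, Ifit2 and Irf7 were called higher in the allograft, 3 of 10 beside 5.81% of all genes, and 0 were called lower, beside 7.13%. The median log2 ratio was 0.18, beside 0.10 for all genes. Irf7 stood at 74.3 CPM in allograft, 31.4 CPM in native and 83.8 CPM in spleen phagocytes, a ratio between the tracheas of 2.36 (2.12 to 2.65). Native trachea was the low library for Irf7, and allograft and spleen were near each other. Irf7 UMIs were found in 28.1% of allograft, 12.3% of native and 22.5% of spleen phagocytes, at median depths of 6873, 6498 and 3526 UMIs, and in 9.89%, 4.15% and 9.17% after thinning to 1500 UMIs. Ifit2 stood at 25.6, 8.09 and 15.0 CPM (ratio 3.16, 2.56 to 3.95), with UMIs in 7.57%, 2.05% and 3.98% of phagocytes (3.55%, 0.720% and 2.18% after thinning). Ifi44 stood at 8.94, 1.23 and 1.94 CPM, from 164 allograft and 16 native UMIs (ratio 7.06, 4.34 to 13.0). The low native level rested on few cells, since 6 phagocytes held at least 50% of the native Ifit2 UMIs and 4 held that share of the Ifi44 UMIs. Without the 10 cells with most UMIs in each library, the ratios became 6.62 for Ifit2 and 37.8 for Ifi44.

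Isg15 and Ifit1 went the other way in phagocytes. Ifit1 stood at 34.5 CPM in the allograft, 66.6 CPM in the native trachea and 24.7 CPM in the spleen, a ratio between the tracheas of 0.518 (0.466 to 0.574). That is just short of 2-fold lower, and it was called lower with median-of-ratios scaling (0.487) or without the 10 cells with most UMIs (0.455). Isg15 stood at 87.0, 141 and 35.9 CPM, a ratio of 0.616 (0.576 to 0.659). Rsad2 stood at 166, 195 and 32.0 CPM (ratio 0.850, 0.807 to 0.897), although its UMIs were found in more allograft than native phagocytes, 28.1% against 19.8% (12.4% against 11.6% after thinning). Oasl2 (38.4 and 26.7 CPM, ratio 1.44, 1.26 to 1.64) was higher in the allograft without being called. Ifit3 (ratio 1.09), Mx1 (1.18) and Usp18 (0.840) had intervals that included 1.

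Spleen phagocytes had another makeup of the same genes. Mx1, at 11.2, 9.48 and 23.7 CPM, and Ifit3, at 18.4, 16.9 and 31.5 CPM, were highest there, while Rsad2 and Isg15 were lowest. The high values rested on few cells, since 8 spleen phagocytes held at least 50% of the Mx1 UMIs and 5 that share of Ifit3. Without the 10 cells with most UMIs, Mx1 stood at 8.57, 5.90 and 9.52 CPM and Ifit3 at 13.5, 10.7 and 9.98 CPM, so spleen no longer stood above the tracheas for Ifit3. Between allograft and spleen phagocytes 3 genes were called higher (14.1% of all genes) and 1, Mx1, lower (21.3%), at a ratio of 0.467 that became 0.879 (0.557 to 1.53) without those cells, where it was not called. Between native and spleen phagocytes, of 9 measured genes, Isg15, Ifit1 and Rsad2 were called higher (16% of all genes) and Mx1 and Irf7 lower (26.4%), of which Mx1 had a ratio of 0.397 that became 0.608 (0.371 to 1.09) without those cells and was not called. These pools differed in markers of other cells. The 10 neutrophil markers summed to 218, 326 and 2736 CPM in allograft, native and spleen phagocytes, and the 10 fibroblast markers to 131 and 143 CPM in the allograft and native ones. Their part in the member levels was not tested.

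Interferon beta itself, encoded by Ifnb1, was read in few cells of the tracheas and in none of the spleen. The allograft held 121 Ifnb1 UMIs in 34 cells (4.75 CPM) and the native trachea 473 in 133 cells (15.6 CPM). Spleen had 0 UMIs, which allows up to 0.108 CPM. No other type I or type III interferon gene had more than 5 UMIs in a library. Phagocytes held 117 of the allograft and 408 of the native Ifnb1 UMIs, and 30 allograft (1.29%) and 99 native phagocytes (5.34%) had at least 1. In those cells the antiviral genes were far higher. Their sum was 4540.1 CPM in the 30 allograft cells and 419.9 CPM in the other allograft phagocytes, a ratio of 10.8 (10.1 to 11.5). In the native trachea it was 2475 and 361.6 CPM, a ratio of 6.84 (6.50 to 7.21). Cells with Ifnb1 UMIs held 11.9% of the phagocyte UMIs of the 10 genes in the allograft and 33.1% in the native trachea, from 1.23% and 6.76% of phagocyte UMIs.

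The members split within these cells. Ifit1 stood at 962 CPM with and 22.9 CPM without Ifnb1 UMIs in allograft phagocytes (42.0-fold, 35.5 to 49.6), and at 379 and 44.0 CPM in native ones (8.62-fold). Rsad2 stood at 2301 and 139 CPM in the allograft (16.5-fold) and at 1193 and 123 CPM in the native trachea (9.71-fold). Isg15 stood at 509.9 and 81.8 CPM (6.26-fold) and at 683 and 102 CPM (6.70-fold). These effector genes carried the largest part of the difference. Irf7, by contrast, stood at 57.6 CPM with and 74.5 CPM without Ifnb1 UMIs in the allograft, a ratio of 0.803 whose interval of 0.411 to 1.33 included 1, and at 61.6 and 29.3 CPM in the native trachea (2.12-fold). Ifi44 had 0 UMIs in the 30 allograft cells, where a count of 0 allows up to 13.3 CPM, beside 9.06 CPM in the other phagocytes. Ifit2 was 14.1-fold and Ifit3 9.72-fold higher in the allograft cells with Ifnb1 UMIs, and 3.31-fold and 1.97-fold higher in the native ones. Median depth was 5837 UMIs with and 6879.5 without Ifnb1 UMIs in the allograft, and 7595 and 6427.5 in the native trachea. Without cells holding Ifnb1 UMIs, an alternative chosen after seeing the data, the phagocyte ratio between the tracheas was 0.801 for Isg15 and 1.13 for Rsad2, so the direction of Rsad2 turned. The direction of the sum turned too, with 419.9 CPM in the allograft and 361.6 CPM in the native trachea.

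**Figure D3:**
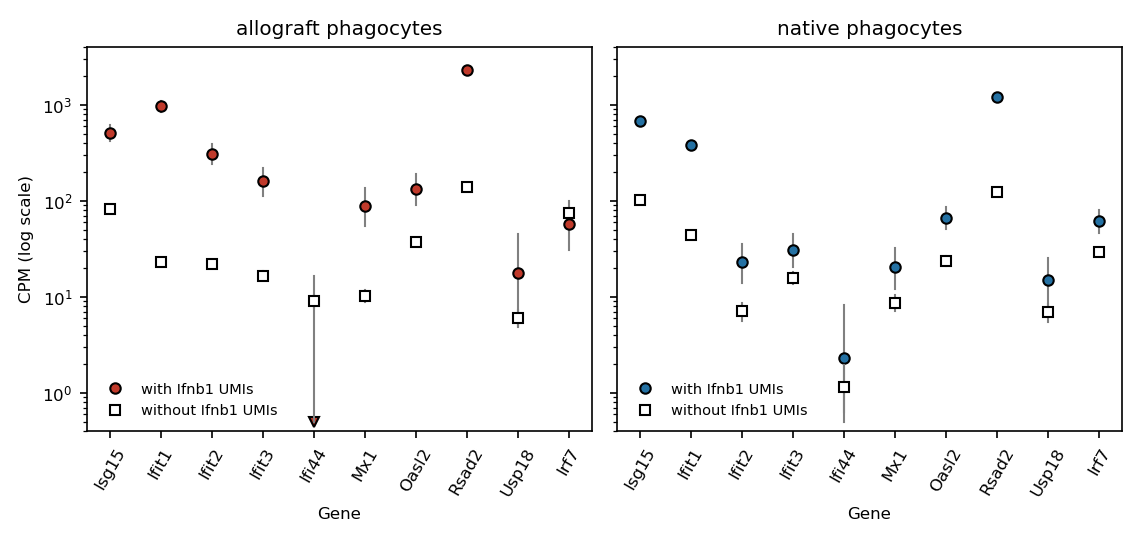
Level of each of the 10 genes (horizontal axis) in phagocytes with Ifnb1 UMIs (filled circles) and without (open squares), in CPM on a log scale, for the allograft and native libraries. Bars are 95% counting intervals, and the triangle at the foot of the axis marks 0 UMIs, with a bar up to the Poisson limit. Ifit1 shows the widest gap, 962 against 22.9 CPM in the allograft, and Irf7 the opposite order there.

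Markers of phagocyte subsets separated the levels further. The subsets overlap, and each took phagocytes with 2 UMIs or more of the genes named. Some held few cells, and subset levels were not checked without the cells with most UMIs. Phagocytes with Ly6c2, a marker of classical monocytes, had a summed level of 873 CPM in the allograft (207 cells) and 514 CPM in the native trachea (32 cells), a ratio of 1.69 (1.44 to 2.01). In the spleen the 60 such cells stood at 529 CPM. Allograft phagocytes with 0 Ly6c2 UMIs stood at 416 CPM, below the cells with Ly6c2. Irf7 showed this most plainly, at 179 CPM with and 57.6 CPM without Ly6c2 UMIs in the allograft, and at 184 and 27.5 CPM in the native trachea. The Irf7 level of Ly6c2 cells was thus nearly the same in both tracheas, from 207 and 32 cells. Phagocytes with 0 Ly6c2 UMIs still differed between the tracheas, at the 57.6 and 27.5 CPM above. The part of the number of Ly6c2 cells in the Irf7 difference was not tested.

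Phagocytes with Lyve1 or Cd163, genes of resident tissue macrophages, were few in the allograft (47 cells) and many in the native trachea (913 cells). Their summed level was 898 and 506 CPM, a ratio of 1.78 (1.55 to 2.02), with Rsad2 at 468 and 207 CPM. Cells with Gpnmb or Spp1, genes of lipid-laden and scar-associated macrophages, were low in the allograft (347 CPM, 593 cells) and at 418 CPM in the native trachea (75 cells). Cells with Serpinb2 or Prg4, genes of serous cavity macrophages, were few in both. The 22 allograft cells stood at 634 CPM and the 29 native cells at 1611 CPM, a ratio of 0.394 (0.333 to 0.464). In these native cells Rsad2 was at 604, Isg15 at 574 and Ifit1 at 320.4 CPM. Cells with Ace or Treml4, genes of non-classical monocytes, were below the library's phagocyte level in all 3 libraries, with 281, 325 and 211 CPM. Allograft phagocytes with Cxcl9, an interferon gamma target, stood at 571 CPM (392 cells) and those without at 421 CPM. Those with Arg1 or Nos2 (460.3 CPM, 166 cells) were level with those without (464 CPM).

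In T cells the 10 genes were low, and their sum was lower in the allograft (143 CPM) than in the native trachea (186 CPM), a ratio of 0.768 (0.638 to 0.924). Of 5 measured genes, 0 were called higher (9.8% of all genes) and 2 lower (9.83%). Oasl2 had 10 and 28 UMIs in the tracheas (ratio 0.298, 0.125 to 0.612) and Rsad2 13 and 36 UMIs (ratio 0.299, 0.142 to 0.563). These native values rested on few cells, since 2 of 198 native T cells held at least 50% of their Rsad2 UMIs and 3 that share of Oasl2. Without the 10 cells with most UMIs the sum's ratio was 1.45, and neither there nor after thinning was a gene called lower. Isg15 in T cells had a ratio of 0.550, which turned to 1.13 with each cell weighted alike, to 1.26 without those 10 cells and to 1.51 after thinning. The 10 phagocyte markers summed to 198 CPM in allograft and 222 CPM in native T cells, and their part in these levels was not tested. Spleen T cells stood apart in Usp18 (20.8 CPM), with 2.50 and 0.773 CPM in allograft and native T cells. Against spleen T cells, Ifit2, Ifit3, Ifi44 and Usp18 were called lower in the allograft, 4 genes beside 10.4% of all genes, and 0 higher, beside 14.5%. Ifi44 had 0 UMIs in allograft T cells and was at least 4.01-fold lower than in spleen T cells, taking 3 counts as the limit of the library.

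Other classes are described in brief, and some under 50 cells held high levels of single genes from few UMIs. The 34 allograft dendritic cells had Mx1 at 70.0 CPM, above allograft phagocytes at 11.2 CPM, from 30 UMIs in 13 cells. Irf7 in the 17 spleen cells of the plasmacytoid class came from 25 UMIs in 10 cells. Native dendritic cells had Ifit1 at 137 CPM, above native phagocytes at 66.6 CPM, from 82 UMIs in 10 cells, of which 38 lay in 1 cell. Their Rsad2 level of 222 CPM came from 133 UMIs, of which 107 lay in 1 cell. In NK cells of the allograft Irf7 stood at 82.6 CPM, near the 100.3 CPM of neutrophils. Spleen plasma cells, the deepest lymphoid cells (median 20868 UMIs), had 0 Rsad2 UMIs, which allows up to 1.87 CPM, and Irf7 at 8.09 CPM. Their Isg15 level of 24.9 CPM came from 40 UMIs in 7 cells, of which 22 lay in 1 cell.

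The UMIs of these genes were gathered in few cells. The fewest cells that held 50% of the summed UMIs were 217 in the allograft (5.62% of cells), 153 in the native trachea (3.72%) and 168 in the spleen (3.68%). For the UMIs of all genes the same share took 22.0%, 26.4% and 22.5% of cells. A low count alone limits how many cells can hold a gene. Genes of like level were not set beside these, so the part of count level was not tested. In the allograft Ifit1 was the most gathered, with 30 cells (0.776%), and Irf7 the most spread, with 199 cells (5.15%). Between them lay Ifit2 (34 cells), Ifit3 (42), Mx1 (45), Ifi44 (47), Usp18 (55), Rsad2 (96), Isg15 (174) and Oasl2 (182). In the native trachea 45 cells held that share of Ifit1, 49 of Rsad2 and 14 of Ifi44, and in the spleen 21 cells (0.460%) held that share of Rsad2. Single cells reached 86, 109 and 32 Rsad2 UMIs and 192, 184 and 136 UMIs of all 10 genes in the allograft, native and spleen libraries.

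**Figure D4:**
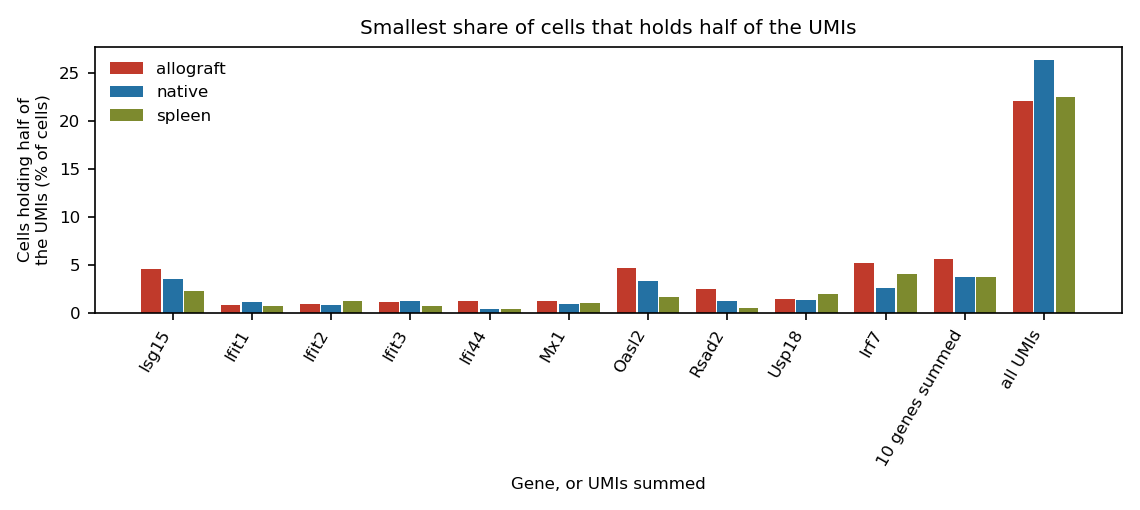
Smallest share of cells, in percent of each library's cells (vertical axis), that holds 50% of the UMIs of each gene, of the 10 genes summed and of all genes (horizontal axis), with bars for the allograft, native and spleen libraries. The bars of the summed genes stand at 5.62%, 3.72% and 3.68%, below those of all genes at 22.0%, 26.4% and 22.5%.

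Cells with several of the genes at once were counted after thinning each cell to 1500 UMIs, and 350 allograft, 186 native and 141 spleen cells were too shallow to enter. At least 4 of the 10 genes were found in 87 of 3514 allograft cells (2.48%, exact Clopper-Pearson 95% interval 1.99 to 3.05), in 53 of 3929 native cells (1.35%, 1.01 to 1.76) and in 39 of 4429 spleen cells (0.881%, 0.627 to 1.20). Without thinning the shares were 9.16%, 4.88% and 2.65%. Neutrophils had the highest shares in the allograft and spleen, at 9.39% (37 of 394 cells) and 7.02% (16 of 228 cells), and stood at 2.35% (12 of 511 cells) in the native trachea. Phagocytes differed less, at 1.89% (42 cells), 1.44% (26 cells) and 1.31% (6 cells). In native dendritic cells the share was 5.17% (3 of 58 cells), in native fibroblasts 0.540%, and in spleen T cells 1.01%. At least 1 of the genes was found in 66.5%, 52.3% and 48.7% of thinned neutrophils and in 32.4%, 27.7% and 19.2% of thinned phagocytes. Spleen plasma cells, the spleen class with the lowest summed level, had a UMI of any member in 3.90% of thinned cells (26.0% before thinning), and 0 of 77 had 4, which allows a share of up to 3.90%. The spleen phagocyte and T cell shares lie below that limit. In the tracheas the lowest summed levels among classes of 50 cells or more were in allograft NK cells and native B cells. A UMI of any member was found in 16.2% and 10.9% of those thinned cells. At least 4 were found in 0 of 154 and 0 of 55. The share from free RNA was not tested there.

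**Figure D5:**
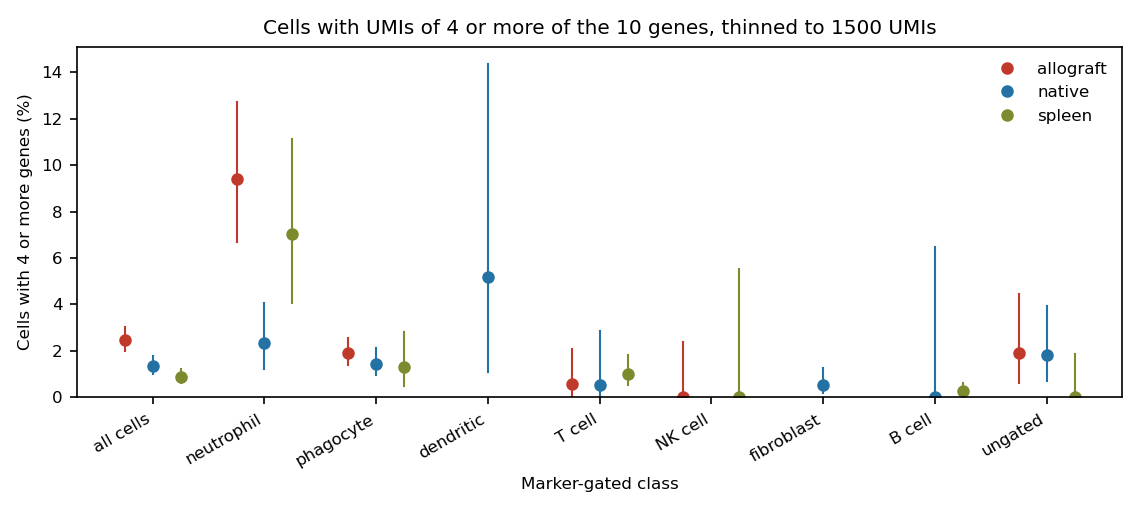
Share of cells, in percent (vertical axis), with UMIs of at least 4 of the 10 genes after thinning to 1500 UMIs, by cell class (horizontal axis) and library, with exact 95% intervals. Neutrophils stand at 9.39% in the allograft, 2.35% in the native trachea and 7.02% in the spleen.

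Some pairs of members were found in the same cells more often than others. Among thinned allograft phagocytes, Rsad2 was found in 53.2% of the 77 cells with Ifit1 and in 10.9% of the 2147 without. It was likewise found in 50.6% of the 79 cells with Ifit2 and in 11.0% of the rest. Among native phagocytes Rsad2 was found in 50.5% of the 99 cells with Ifit1 and in 9.31% of those without, and Isg15 in 39.4% and 10.6%. In allograft neutrophils Isg15 was found in 87.9% of the 33 cells with Ifit1 and in 44.3% of the others. In spleen neutrophils Isg15 was found in 66.7% of the 33 cells with Rsad2 and in 21.0% of the others. Other pairs in allograft phagocytes differed less, on few cells. Oasl2 was found in 6.25% of the 32 cells with Mx1 (2 cells, interval 0.766 to 20.8) and in 5.02% of those without. Irf7 was found in 17.4% of the 23 cells with Usp18 (4.95 to 38.8) and in 9.81% of those without. The counts of Irf7 and Usp18 had an r of 0.012 across cells. Intervals this wide do not show that a difference is absent. The cells compared share a library and a depth of 1500 UMIs.

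The other genes of the pathway were described from lists, over all cells and between the tracheas. Of 29 further interferon-stimulated antiviral genes, 3 were called higher in the allograft and 1 lower, beside 6.43% and 16.9% of all genes, so the count higher was near the background. The median log2 ratio of that list was 0.37. The higher ones were the nucleic acid sensor Zbp1 (3.47-fold), the synthetase Oas3 (2.47-fold) and Ifit1bl1 (2.35-fold). The lower one was Ifitm3, which blocks virus entry, at a ratio of 0.482, and Ifi27l2a (0.559) and Isg20 (0.776) were the next lowest. Of 16 GTPases and chemokines mainly known as interferon gamma targets, 12 were called higher and 0 lower. The list's median log2 ratio was 1.78. The largest ratios belonged to Cxcl9 (26.6), Gbp4 (20.5) and Igtp (6.76), and the smallest to Cxcl10 (1.04), Socs1 (1.12) and Irf1 (1.51). The 10 antiviral genes, at a median of 0.47, thus lay near the other antiviral genes and below the interferon gamma list.

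Of 11 receptors and signal transducers, 2 were called higher and 0 lower, beside the same 6.43% and 16.9%. Among them Ifngr1 was 2.06-fold higher and Irf9, which was not called, 1.66-fold, and the lowest were Jak1 (0.808), Jak2 (0.913) and Il10rb (1.08). Of 15 sensors and induction genes, read against the same shares, 3 were called higher, Ikbke (2.96), Irf8 (2.82) and Tlr8 (2.46), and 0 lower, with Myd88 (0.679), Tlr3 (0.844) and Mb21d1 (1.03) lowest. Among interferons Ifng was 25.3-fold higher in the allograft and Ifnb1 was lower, at a ratio of 0.305 (0.247 to 0.372).

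The same lists differed between classes. In phagocytes 1 of 27 other antiviral genes was called higher and 1 lower (median log2 ratio -0.04), near the 5.81% and 7.13% of all genes, while 12 of 15 interferon gamma targets were called higher (median 1.67). In neutrophils 10 of 23 other antiviral genes were called higher and 0 lower (median 0.83), beside 3.9% and 2.76% of all genes, among them Zbp1 (5.56-fold), and all 12 measured interferon gamma targets (median 3.79).

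Across the 17 pools of cell class and library with 50 gated cells or more, the genes whose log2(CPM + 1) ran most like that of the 10 genes summed were Rnf149 (Pearson r 0.937), Slc16a3 (0.936), Olr1 (0.929), Il1rn (0.927), Clec4n (0.925), Atp6v1g1 (0.924), Il1b (0.923), Lilra6 (0.921), Slc7a11 (0.921) and Rtp4 (0.920). Of 10991 genes ranked, 26 reached 0.9, and the pools share 3 libraries. Among the members, each set against the sum of the other 9, Oasl2 (0.909), Ifit1 (0.893), Rsad2 (0.867) and Isg15 (0.840) ran closest to the rest. Ifit2 (0.722), Ifit3 (0.704) and Usp18 (0.605) followed, and Irf7 (0.478), Mx1 (0.303) and Ifi44 (0.077) ran least like it.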

How the data were processed

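The deposited count matrices hold whole-number UMI counts per gene and barcode, 1 matrix per source, made by the authors with Cell Ranger 3.1.0 per the file headers, from 10x Chromium 3′ v3 libraries per the labels' protocols. The genome build was mm10 per the submitters' processing notes. Of 4611, 4626 and 4856 barcodes (allograft, native, spleen), those with 500 genes or more, 20% or less mitochondrial UMIs and no scrublet doublet mark (scanpy 1.11.5, expected rate 0.8% per 1000 barcodes) were used. No barcode could be assigned to any of the 12 samples, so no test was run.

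A cell joined a class with UMIs in 3 or more of its 10 markers and in at least 2 more than of any other class. UMIs were summed per class and library and divided by the class total (CPM). Ratios had 0.5 UMI added to each sum, with exact conditional binomial 95% intervals. Levels had Poisson and shares exact Clopper-Pearson intervals, and a count of 0 was taken to allow up to 3 counts. Likeness was ranked among genes with 300 UMIs or more. Calling was tested on simulated counts with known changes. Those counts held counting error only, with no spread between cells or animals, so the test cannot speak to such spread.

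The members and lists were chosen with earlier results of these data known. The text names all 10 members, up to 3 genes with the highest and 3 with the lowest all-cell ratio of each pathway list, and the 10 most alike genes. Zbp1 is also named by class, chosen after its values were seen, and 1 gene of the pathway lists is not reported here. Alternatives changed the cell filter, doublet removal, scaling, summing, totals, depth, gates and minimum UMIs, and left out the 10 cells with most UMIs. Python 3.11.15, numpy 2.4.6, scipy 1.17.1, pandas 2.3.3 and matplotlib 3.10.9 were used. Barcodes that failed the filters were left out, and the promoters of Mx1 and Usp18 are not shown.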

Additional observations from a re-analysis of the deposited data

Results flagged for a closer look

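Between the tracheas, some members differed in opposite directions in different cell classes, and the difference between classes was not tested. Isg15 had an allograft to native ratio of 1.33 in neutrophils, 0.616 in phagocytes and 0.550 in T cells. Ifit1 had a ratio of 2.21 in neutrophils and 0.518 in phagocytes. Rsad2 had a ratio of 3.03 in neutrophils, 0.850 in phagocytes and 0.299 in T cells. Oasl2 was higher in phagocytes (1.44) and neutrophils (2.09) and lower in T cells (0.298). The 10 genes summed had ratios of 1.96 in neutrophils, 0.933 in phagocytes and 0.768 in T cells. In phagocytes without cells holding Ifnb1 UMIs, the Rsad2 ratio was 1.13 and the sum was 419.9 CPM in the allograft and 361.6 CPM in the native trachea, so neither was then lower in the allograft. The T cell values rest on few cells, and without the 10 cells with most UMIs the ratio there was 1.26 for Isg15 and 1.45 for the sum.

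Barcodes that failed the filters also held UMIs of these genes. The 747 allograft, 511 native and 286 spleen barcodes left out had a summed level of 422, 490 and 267 CPM. Their median mitochondrial share was 35.8%, 35.8% and 27.1%.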

How the results depend on the processing

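Over all cells, Irf7 and Ifi44 were called higher in the allograft under every alternative. In phagocytes 0 genes were called lower, and 1 (Ifit1) was with median-of-ratios scaling and 1 without the 10 cells with most UMIs. In neutrophils 6 genes were called higher, 3 under the stricter filter (1000 genes or more, 10% or less mitochondrial UMIs), 3 without the 10 cells with most UMIs and 2 with cells thinned to 1500 UMIs, and fewer genes were measured in each. Usp18 in neutrophils turned to 0.874 under the stricter filter, with 6 UMIs. In T cells 2 genes were called lower, and 0 without the 10 cells with most UMIs or after thinning, where 2 were measured. The share of cells with 4 genes or more was 1.42%, 0.538% and 0.619% (allograft, native, spleen) thinned to 1000 UMIs, 9.16%, 4.88% and 2.65% without thinning, and 0.370%, 0.331% and 0.339% for 6 genes or more. Under the stricter filter it was 1.80% in the allograft and 0.614% in the spleen. After thinning, 98 spleen cells in place of 168 held 50% of the summed UMIs. The spleen neutrophil to phagocyte ratio rose from 2.78 to 5.80 with each cell weighted alike, and the cause was not tested. Median-of-ratios scaling left 1 of the 2 receptors and transducers called higher. Leaving out cells with Ifnb1 UMIs, chosen after seeing the data, left 2 calls over all cells, 3 in phagocytes and 6 in neutrophils. Of the members called between the tracheas, Usp18 in neutrophils was the only gene whose ratio crossed 1 under an alternative, and uncalled ratios crossed it too, among them Isg15 in T cells (0.550 to 1.26 without the 10 cells with most UMIs). Against spleen phagocytes, the same change took the allograft ratio of Ifit3 from 0.580 to 1.32 and of Usp18 from 0.573 to 1.55, and ended the lower call of Mx1. No paired analysis was possible because each source was 1 library whose cells carry no sample names. Spread between animals is unknown, and genes under 30 UMIs, such as Ifi44 and Mx1 in neutrophils, could not be measured at this depth.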
